A study of Mus musculus with 12 samples.

Results

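The sugar and monocarboxylate cotransporters of the kidney were described as a fixed list of 9 genes, 7 of the sodium-coupled SLC5 family (*Slc5a1*, *Slc5a2*, *Slc5a8*, *Slc5a9*, *Slc5a10*, *Slc5a11* and *Slc5a12*) and 2 of the facilitative SLC2 family (*Slc2a2* and *Slc2a5*). They are 9 of the 55401 gene identifiers in the tables, and all 9 passed the filter on low counts. Whole kidneys of male C57BL6 mice aged 8 weeks were compared between 6 mice given vehicle (15% 2-hydroxypropyl-beta-cyclodextrin) and 6 mice given SK-124, an inhibitor of the salt-inducible kinases SIK2 and SIK3, at 40 mg/kg as an intraperitoneal injection. RNA of each kidney was sequenced as 1 library per mouse on a BGISEQ-500 instrument, and the time between injection and collection for these libraries was not given in the sources used here. The labels name no engineered allele, and the question was which transcripts respond to acute SIK2 and SIK3 inhibition in the kidney.

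Glucose, other sugars, inositol, lactate and ketone bodies are filtered at the glomerulus and are taken back up almost completely by the proximal tubule. SLC5 carriers in the brush border use the sodium gradient to pull these solutes into the cell, and SLC2 carriers let sugars leave down their gradient, mostly through the basolateral membrane. The tubule divides the work along its length, with high-capacity glucose uptake early and high-affinity uptake late, and the transcripts are best known as markers of its S1, S2 and S3 segments.

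With SK-124, *Slc5a8* and *Slc5a10* rose, by 0.35 and 0.26 on the log2 scale, and the other 7 transporters did not pass the test in either direction. The comparison used edgeR's quasi-likelihood test over 14159 genes, with p-values adjusted by Benjamini-Hochberg (FDR, threshold 0.05), and levels are given as CPM, counts relative to the TMM-scaled library size. The members higher with SK-124 were thus 2 of 9, beside 10.8% of all tested genes that passed in this direction, and the members lower were 0 of 9, beside 13.5%. In either direction 24.4% of all tested genes passed, so the share among the transporters was near that of all genes. Under library totals 1 member was higher (*Slc5a8*) and 3 were lower (*Slc5a9*, *Slc2a2* and *Slc2a5*). In that fit 778 of 14159 genes were higher and 3057 were lower. With limma on log2(TPM + 0.1) none was higher and 2 were lower (*Slc2a2* and *Slc2a5*), beside 498 of 14159 genes higher and 2118 lower. *Slc5a9* (FDR = 0.139) and *Slc2a5* (FDR = 0.0615) were lower at an unadjusted p under 0.05 in edgeR's quasi-likelihood test. The share of all tested genes at that looser cutoff was not counted, so the 2 genes are not set against it. DESeq2 also called 0 members lower, beside 1812 of 17464 genes. All 6 SK-124 mice lay above all 6 vehicle mice for 1 member, *Slc5a10*, as they did for 6.32% of all tested genes. No member had all SK-124 mice below all vehicle mice, which was the case for 6.65% of all tested genes, so that 1 of 9 members and 13.0% of all tested genes separated the groups in either direction.

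**Figure D1:**
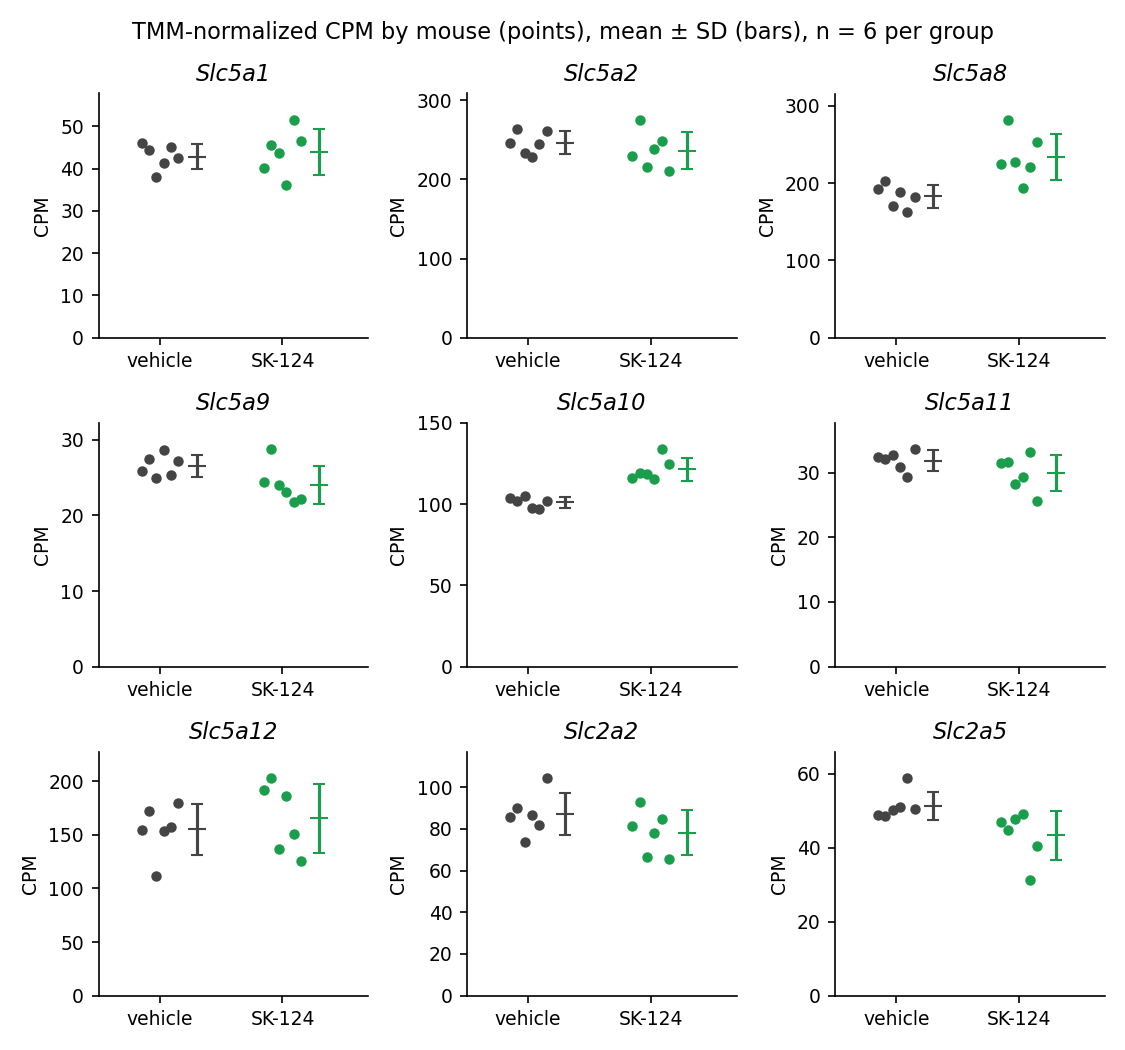
TMM-normalized CPM of each transporter (y axis, from 0) in 6 vehicle and 6 SK-124 mice, 1 point per mouse, with the mean ± SD of each group as bars. The 6 SK-124 points of *Slc5a10* lie between 115 and 134 CPM, above the 6 vehicle points between 97.1 and 105 CPM, and no other member separates the groups completely.

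The starts of the 2 genes that rose are shown because these are the members that passed the test, and that of *Slc5a1* because it held the matches found among the members. The sequences are the 250 bases before each annotated start from RefSeq (GRCm38.p6), 5′ to 3′ on the strand of the gene. The *Slc5a8* window is chr10:88885742-88885991 on the plus strand, and *Slc5a10* has windows for 2 annotated starts on the minus strand, chr11:61720800-61721049 (upstream start) and chr11:61719986-61720235 (downstream start). The *Slc5a1* window is chr5:33103969-33104218 on the plus strand. Capitals mark the motifs that were found.
Slc5a8: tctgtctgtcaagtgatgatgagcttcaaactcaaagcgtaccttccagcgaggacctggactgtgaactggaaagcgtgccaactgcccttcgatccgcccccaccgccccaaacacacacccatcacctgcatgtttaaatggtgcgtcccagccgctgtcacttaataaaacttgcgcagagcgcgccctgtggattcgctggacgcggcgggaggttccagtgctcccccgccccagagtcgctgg
Slc5a10 upstream start: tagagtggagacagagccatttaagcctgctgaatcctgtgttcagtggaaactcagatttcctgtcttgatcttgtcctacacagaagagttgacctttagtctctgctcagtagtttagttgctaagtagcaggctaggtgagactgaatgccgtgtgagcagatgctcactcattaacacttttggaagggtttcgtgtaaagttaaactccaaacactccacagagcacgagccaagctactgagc
Slc5a10 downstream start: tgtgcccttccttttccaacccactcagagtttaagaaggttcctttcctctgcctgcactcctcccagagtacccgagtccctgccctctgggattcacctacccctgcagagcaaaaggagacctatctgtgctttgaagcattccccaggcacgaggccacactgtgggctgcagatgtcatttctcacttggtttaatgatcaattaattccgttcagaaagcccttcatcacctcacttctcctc
Slc5a1: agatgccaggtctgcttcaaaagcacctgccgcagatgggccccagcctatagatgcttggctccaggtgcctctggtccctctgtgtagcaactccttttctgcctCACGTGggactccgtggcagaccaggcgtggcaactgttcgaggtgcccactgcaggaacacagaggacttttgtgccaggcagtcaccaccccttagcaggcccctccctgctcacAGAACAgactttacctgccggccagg

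These windows were searched on both strands for 3 short motifs, and no matches in the windows of the members overlapped. A CREB half-site (TGACG), named for CREB, whose activity CRTC coactivators stimulate, occurs in 17.8% of all 32851 promoter windows of the same length. A glucocorticoid receptor half-site (TGTTCT) occurs in 16.1%, and an E-box (CACGTG) in 6.02%. Among the 7 windows at hand for 6 of the 9 members, that of *Slc5a1* held an E-box from base -143 to base -138 before its start and a glucocorticoid receptor half-site, read as AGAACA on the strand shown, from -26 to -21. The windows of *Slc5a8*, *Slc5a11*, *Slc2a2* and *Slc2a5* and both windows of *Slc5a10* held none of these letters. The starts of *Slc5a2*, *Slc5a9* and *Slc5a12* were not analysed here. A match is a string of letters and was not tested as a binding site.

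To order the transporters by abundance, levels were compared as the authors' TPM, which is scaled to transcript length. In vehicle mice *Slc5a2*, the high-capacity glucose carrier SGLT2, was highest at 124 ± 14.1 TPM (mean ± SD, n = 6). *Slc5a12* followed at 56.4 ± 7.53 TPM and *Slc5a10* at 51.3 ± 3.11 TPM. *Slc5a8* was at 32.9 ± 3.06 TPM, *Slc2a2* at 25.8 ± 3.99 TPM and *Slc2a5* at 22.7 ± 3.45 TPM. The lowest were *Slc5a11* at 17.0 ± 1.39 TPM, *Slc5a1* at 10.2 ± 1.19 TPM and *Slc5a9* at 9.63 ± 0.742 TPM. Neighbours in this order separated without overlap between mice at 3 steps, *Slc5a2* above *Slc5a12*, *Slc5a10* above *Slc5a8* and *Slc5a11* above *Slc5a1*. The ranges of the other neighbours overlapped between mice. Within the same vehicle mouse, *Slc5a8* was above *Slc2a2*, and *Slc2a5* above *Slc5a11*, in 6 of 6 mice. *Slc5a12* was above *Slc5a10*, and *Slc2a2* above *Slc2a5*, in 5 of 6, and *Slc5a1* was above *Slc5a9* in 4 of 6. Over all 12 mice *Slc5a2* ranked 495 among the 14159 tested genes by TPM, and *Slc5a9* ranked 4906.

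The order of mean TPM was the same in SK-124 mice, from *Slc5a2* at 105 ± 11.8 TPM to *Slc5a9* at 8.12 ± 1.296 TPM (n = 6). The range of *Slc5a8*, at 37.8 ± 4.85 TPM, then also stood clear of that of *Slc2a2*, at 19.0 ± 2.29 TPM. Within the same mouse *Slc5a8* was above *Slc2a2* in 6 of 6 mice of either group. The summed TPM of the 9 transporters was 299 to 392 in vehicle mice and 282 to 368 in SK-124 mice, with overlap. *Slc5a2* made up 34.4% to 36.1% of that sum in vehicle mice and 30.8% to 33.1% in SK-124 mice, and these ranges did not overlap. As a share of the summed expected counts of the 9 transporters, which are not divided by length, the ranges overlapped only through the lowest vehicle mouse. The other vehicle mice were above every SK-124 mouse. The share is given as a description, with no test. TPM is divided by a transcript length that RSEM estimates in each mouse, and the part of that length in the share was not tested.

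**Figure D2:**
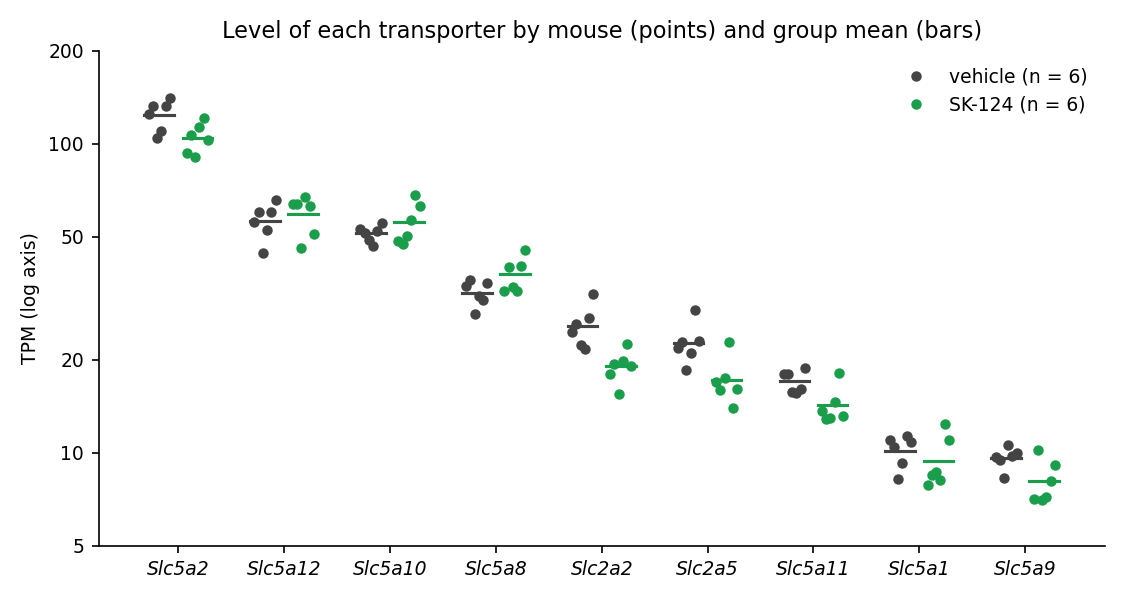
TPM of the 9 transporters (log axis) in 6 vehicle and 6 SK-124 mice, ordered by the vehicle mean, with points for mice and a bar for each group mean. *Slc5a2* stands above every other member in all 12 mice, and *Slc5a1* and *Slc5a9* are lowest in both groups, with means between 8.12 and 10.2 TPM.

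*Slc5a2* lies at chr7:128265657-128272430 on the plus strand (GENCODE M21, GRCm38) and encodes SGLT2, which takes up most of the filtered glucose in the early proximal tubule. In vehicle mice its lowest, median and highest values were 228, 246 and 264 CPM, and in SK-124 mice 211, 234 and 275 CPM. The groups overlapped, with the highest value of all in SK-124 mouse 2 and the lowest in SK-124 mouse 6. The log2 fold change was -0.06 (95% interval -0.20 to 0.08, FDR = 0.573, edgeR's quasi-likelihood test). *BC017158*, on the opposite strand, overlaps *Slc5a2*, and whether reads were counted by strand was not given in the sources used here. It reached at most 27.2 CPM in vehicle mice and 25.1 CPM in SK-124 mice.

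*Slc5a1*, at chr5:33104219-33162870 on the plus strand, encodes SGLT1, the high-affinity carrier that recovers glucose left over in the late proximal tubule. Vehicle mice had 37.9, 43.4 and 46.2 CPM at the lowest, median and highest, and SK-124 mice 36.04, 44.8 and 51.6 CPM. SK-124 mice lay on both sides of the vehicle range, 2 above it and 1 below it. Its log2 fold change was 0.04 (95% interval -0.13 to 0.20, FDR = 0.777, edgeR's quasi-likelihood test), and the sign turned under library totals (-0.08). A pair of annotated pseudogenes overlaps the gene and had at most 1 count in any mouse.

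*Slc5a10* encodes SGLT5, a kidney-enriched carrier of mannose, fructose and related sugars, and lies at chr11:61672781-61720826 on the minus strand. It had 97.1, 102 and 105 CPM at the lowest, median and highest in vehicle mice and 115, 119 and 134 CPM in SK-124 mice. The SK-124 group sat wholly above the vehicle group, with mouse 5 highest. This was a log2 fold change of 0.26 (standard error 0.05, 95% interval 0.16 to 0.37, FDR = 0.000761, edgeR's quasi-likelihood test), a ratio of geometric means of 1.198. The change kept its call with each mouse left out in turn, between 0.23 and 0.28. The upward call was lost under library totals (0.15, FDR = 0.132) and with limma on log2(TPM + 0.1) (0.11, FDR = 0.480). *Grap* and *Fam83g*, on the opposite strand, overlap *Slc5a10*. They were at lower levels, 2.05 to 4.39 CPM and 6.74 to 12.1 CPM over all mice, and their log2 fold changes were -0.39 (FDR = 0.0824) and -0.32 (FDR = 0.0341, edgeR's quasi-likelihood test).

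*Slc5a9*, at chr4:111875375-111902918 on the minus strand, encodes SGLT4, a carrier of mannose and fructose. Its lowest, median and highest values were 24.9, 26.5 and 28.6 CPM in vehicle mice and 21.7, 23.5 and 28.8 CPM in SK-124 mice. In the SK-124 group 5 of 6 mice were below every vehicle mouse, and mouse 2 was above every vehicle mouse. The log2 fold change was -0.15 (95% interval -0.29 to -0.0012, FDR = 0.139, edgeR's quasi-likelihood test). Without SK-124 mouse 2 it was -0.20 and passed the test (FDR = 0.0189).

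*Slc5a11* encodes SMIT2, a sodium-coupled carrier of myo-inositol, and lies at chr7:123214780-123273253 on the plus strand. Vehicle mice had 29.3, 32.3 and 33.7 CPM at the lowest, median and highest, and SK-124 mice 25.6, 30.4 and 33.2 CPM. The groups overlapped in 4 of 6 SK-124 mice, with 2 below the vehicle range. Its log2 fold change was -0.09 (95% interval -0.23 to 0.05, FDR = 0.344, edgeR's quasi-likelihood test). It was called lower when libraries were scaled to their totals without mitochondrially encoded genes (-0.19, FDR = 0.0377). *Slc5a3*, the other sodium-coupled inositol carrier and an osmotically regulated gene, was at 34.4 ± 2.64 CPM in vehicle mice and 95.2 ± 11.9 CPM in SK-124 mice (SD, n = 6). It rose by 1.47 on the log2 scale (FDR = 7.46e-10, edgeR's quasi-likelihood test), with all 6 SK-124 mice above all vehicle mice.

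*Slc5a8* encodes SMCT1, which takes up lactate, pyruvate, ketone bodies and nicotinate in the late proximal tubule, and lies at chr10:88885992-88929515 on the plus strand with no overlapping gene. Its lowest, median and highest values were 163, 185 and 203 CPM in vehicle mice and 194, 227 and 282 CPM in SK-124 mice. In the SK-124 group 5 of 6 mice were above every vehicle mouse, and mouse 4, at 194 CPM, was within the vehicle range. The log2 fold change was 0.35 (standard error 0.08, 95% interval 0.18 to 0.52, FDR = 0.00332, edgeR's quasi-likelihood test), a ratio of geometric means of 1.27. It passed the test with each mouse left out in turn, between 0.29 and 0.40. The call was lost with limma on log2(TPM + 0.1), at 0.19 (FDR = 0.178).

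*Slc5a12*, at chr2:110597298-110647779 on the plus strand, encodes SMCT2, the low-affinity monocarboxylate carrier found along the early and middle proximal tubule. In vehicle mice it had 112, 156 and 180 CPM at the lowest, median and highest, and in SK-124 mice 126, 168 and 203 CPM. Relative to its mean it varied more between the mice of a group than any other member, with vehicle mouse 3 lowest at 112 CPM. In the SK-124 group 3 of 6 mice were above the vehicle range and the others were inside it. The log2 fold change was 0.09 (95% interval -0.16 to 0.35, FDR = 0.630, edgeR's quasi-likelihood test), and it turned to -0.03 under library totals. Without vehicle mouse 3 it was 0.02.

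*Slc2a2* encodes GLUT2, the basolateral exit path for glucose in the early proximal tubule, and lies at chr3:28697903-28731359 on the plus strand. It had 74.0, 86.0 and 105 CPM at the lowest, median and highest in vehicle mice and 65.5, 79.7 and 93.1 CPM in SK-124 mice. The groups overlapped, with SK-124 mice 3 and 6 below the vehicle range. The log2 fold change was -0.15 (95% interval -0.35 to 0.04, FDR = 0.244, edgeR's quasi-likelihood test). In TPM the separation was wider, 21.6 to 32.6 TPM in vehicle mice and 15.5 to 22.5 TPM in SK-124 mice, and limma on log2(TPM + 0.1) called *Slc2a2* lower (-0.43, FDR = 0.0104). The transcript length that RSEM weights by isoform, and by which TPM is divided, averaged 3334 bases in vehicle mice and 3603 bases in SK-124 mice for *Slc2a2* (unadjusted p = 0.0336, FDR = 0.831, limma). By the same test the length of *Slc5a12* averaged 2732 bases with vehicle and 2508 bases with SK-124, and that of *Slc5a2* 2036 and 2077 bases (unadjusted p = 0.0247 and FDR = 0.768 for each, limma). None of the 7 members tested passed at the FDR threshold, which 0.0583% of 11999 genes did, and *Slc5a1* and *Slc5a8*, with 1 annotated transcript each, were not tested. The antisense gene *1700112D23Rik* overlaps *Slc2a2* and reached at most 0.204 CPM.

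*Slc2a5* encodes GLUT5, a facilitative fructose carrier, and lies at chr4:150119283-150144169 on the plus strand. Its lowest, median and highest values were 48.7, 50.3 and 59.0 CPM in vehicle mice and 31.2, 45.8 and 49.2 CPM in SK-124 mice. In the SK-124 group 5 of 6 mice were below every vehicle mouse, mouse 5 lowest, and mouse 4 was inside the vehicle range. The log2 fold change was -0.24 (95% interval -0.44 to -0.05, FDR = 0.0615, edgeR's quasi-likelihood test). Without SK-124 mouse 5 it was -0.16 (FDR = 0.0887), and without vehicle mouse 5, the highest of its group, -0.20 (FDR = 0.139). Without SK-124 mouse 4 it was -0.28 and passed the test (FDR = 0.0392, the only fit with a mouse left out in which it did). It also passed under library totals (-0.36, FDR = 0.00643) and with limma on log2(TPM + 0.1) (-0.40, FDR = 0.0251).

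These scalings moved all genes, not the transporters alone. The median log2 fold change of all tested genes was -0.01 with TMM, -0.12 with library totals and -0.14 with limma on log2(TPM + 0.1). Of the genes called, 44.5% were higher with TMM and 20.3% with library totals. Relative to these medians *Slc5a8* was at 0.36, 0.35 and 0.34, and *Slc5a10* at 0.27, 0.27 and 0.25. On the same relative scale *Slc2a5* was at -0.24, -0.25 and -0.26, and *Slc2a2* at -0.15, -0.15 and -0.29. In bulk tissue fewer cells of a type and less RNA per cell cannot be told apart.

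**Figure D3:**
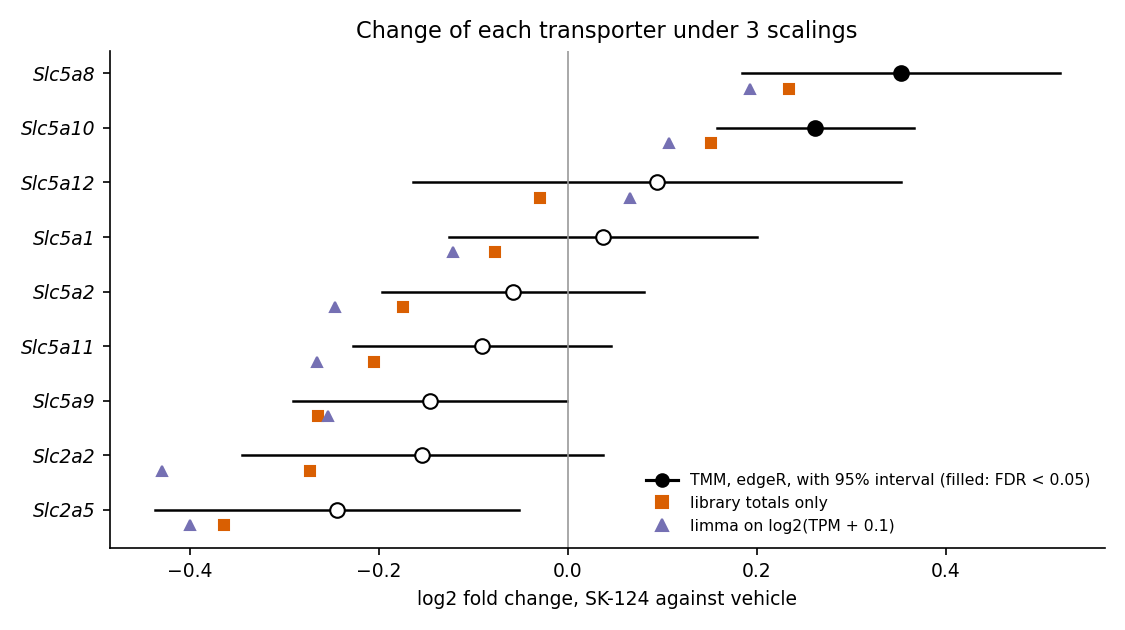
Log2 fold change of each transporter (x axis, SK-124 against vehicle, n = 6 per group) from edgeR with TMM and its 95% interval, with library totals and with limma on log2(TPM + 0.1). *Slc5a8* (0.35) and *Slc5a10* (0.26) are filled as passing the test with TMM, and the values under the other scalings lie to the left of the TMM value of the same gene for all 9.

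Library totals overlapped between the groups. Expected counts summed to 19350134 to 19771802 per vehicle mouse and to 19244227 to 19530313 per SK-124 mouse, and each member had at least 421 counts in every mouse. The 10 genes with the most counts took 39.9% to 43.2% of the counts in vehicle mice and 38.6% to 46.8% in SK-124 mice, with SK-124 mice 1 to 3 above the vehicle range and mice 4 and 5 below it. Mitochondrially encoded genes took 27.7% to 29.9% in vehicle mice and 25.8% to 32.4% in SK-124 mice, with SK-124 mice 1 and 2 above the vehicle range and mice 4 to 6 below it. With SK-124 mice 1 to 3 alone against all vehicle mice, *Slc5a8* was at 0.42 and *Slc5a10* at 0.22, and with mice 4 to 6 alone at 0.29 and 0.31, all past the FDR threshold of edgeR's quasi-likelihood test. *Slc5a9* was at -0.04 with mice 1 to 3 and at -0.24 (FDR = 0.0283) with mice 4 to 6. The labels name no batch. *Cyp27b1*, the vitamin D activating enzyme used by the study as the response to SIK inhibition, was higher in all 6 SK-124 mice, with a log2 fold change of 2.56.

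Members with related substrates were set against each other within each mouse, as the log2 ratio of their TPM, to ask whether they changed by unequal amounts. The 3 ratios were tested with a two-sided exact permutation test over the 12 mice, whose smallest possible p is 0.00216, and adjusted over the 3 pairs (Benjamini-Hochberg). The *Slc5a1* to *Slc5a2* ratio was -3.61 ± 0.08 on the log2 scale in vehicle mice and -3.49 ± 0.22 in SK-124 mice (SD, n = 6; exact permutation p = 0.208, adjusted p = 0.601). SGLT1 transcripts thus stood at 0.0818 of the SGLT2 level with vehicle and 0.0891 with SK-124. The *Slc5a8* to *Slc5a12* ratio was -0.77 ± 0.12 with vehicle and -0.64 ± 0.31 with SK-124 (SD, n = 6; exact permutation p = 0.400, adjusted p = 0.601). For *Slc2a5* to *Slc2a2* it was -0.18 ± 0.20 with vehicle and -0.15 ± 0.33 with SK-124 (SD, n = 6; exact permutation p = 0.855, adjusted p = 0.855). None of the 3 pairs passed, and the SD was larger in SK-124 mice for each ratio. The group difference in the *Slc5a8* to *Slc5a12* ratio, 0.13 on the log2 scale, was 0.26 on counts not divided by length (exact permutation, adjusted p = 0.448). With a mouse left out it lay between 0.03 (without SK-124 mouse 6) and 0.20 (without SK-124 mouse 4), and it passed in none of these. The rise of *Slc5a8* and the smaller value of *Slc5a12* were therefore not shown to differ.

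**Figure D4:**
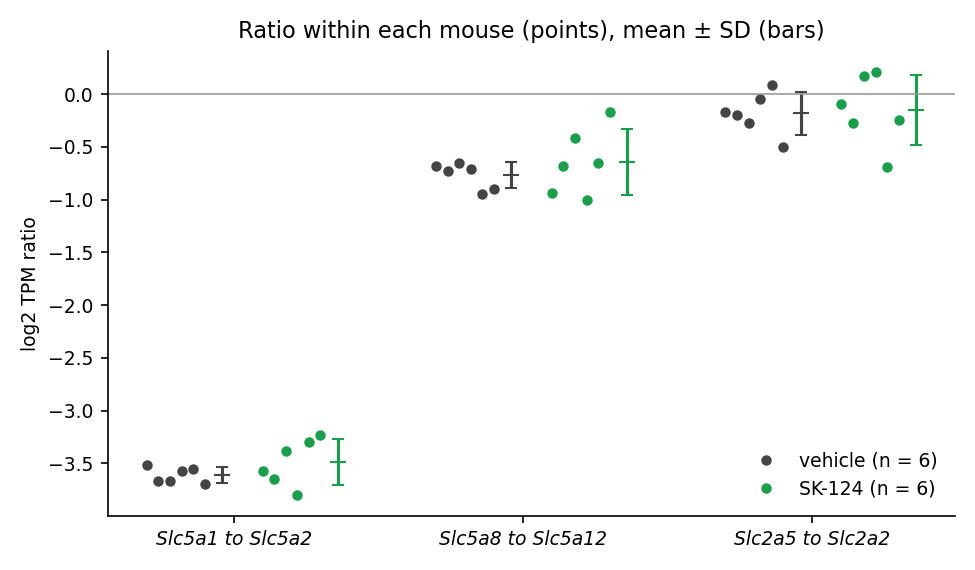
Log2 ratio of the TPM of related transporters within each mouse (y axis) for 3 pairs, with points for 6 vehicle and 6 SK-124 mice and bars for mean ± SD. The groups overlap in all 3 pairs, and the SK-124 points scatter more widely, from -1.01 to -0.17 against -0.95 to -0.65 for *Slc5a8* to *Slc5a12*.

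Mice also differed within their groups in a way that several members shared. After the group means were subtracted, the log2 CPM of *Slc2a2* followed that of *Slc5a2* (r = 0.846, rho = 0.811) and of *Slc5a12* (r = 0.839, rho = 0.783) over the 12 mice, the largest positive values among the 36 pairs of members. Without the 2 mice farthest from the median of *Slc2a2*, r was 0.771 and 0.795. *Slc5a10* and *Slc2a5* went opposite ways (r = -0.925, rho = -0.888), with r = -0.724 among vehicle mice and -0.984 among SK-124 mice, and -0.802 without the 2 mice farthest in *Slc5a10*. SK-124 mouse 5 had the highest *Slc5a10* and the lowest *Slc2a5* of all mice. These pairs were picked after their values were seen, the genes share a library and its scaling, and the correlations are descriptions with no test.

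The genes most alike in this measure, among 13008 genes of at least 1 CPM, were named for each member by a fixed rule. For *Slc2a2* they were *Slc7a8* (r = 0.948) and *Slc34a3* (r = 0.938), an amino acid carrier and a sodium-phosphate cotransporter of the proximal tubule. *Slc5a12* was most like *Clic5* (r = 0.957) and *Syde2* (r = 0.952), *Slc5a2* most like *Dync1h1* (r = 0.901) and *Vps53* (r = 0.900). *Slc5a8* was most like *Lig4* (r = 0.919) and *Lig3* (r = 0.917), and *Slc5a10* most like *Med21* (r = 0.935). For *Slc5a1* they were *Hirip3* (r = 0.961) and *Slc33a1* (r = 0.925), for *Slc5a11* *Btd* (r = 0.925) and *Rdh16* (r = 0.900), for *Slc5a9* *Gm10222* (r = 0.934) and *Slc29a3* (r = 0.929), and for *Slc2a5* *Shisa7* (r = 0.975) and *Ptger1* (r = 0.907). With so many genes over 12 mice such values arise readily, and they are listed as descriptions.

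The rest of the SLC2 and SLC5 families gave 8 tested genes of 16. Beside *Slc5a3*, which rose, 3 fell, against 10.8% of all tested genes that rose and 13.5% that fell, and the median log2 fold change of the tested genes was -0.12, against -0.01 over all genes. *Slc5a6*, the multivitamin carrier for biotin and pantothenate, fell by 0.39 on the log2 scale (FDR = 0.00199). *Slc2a4*, the insulin-responsive glucose carrier GLUT4, fell by 0.32 (FDR = 0.00786). *Slc2a1*, the widely expressed glucose carrier GLUT1, fell by 0.23 (FDR = 0.0247, edgeR's quasi-likelihood test for all). All 6 SK-124 mice were below all vehicle mice for *Slc5a6*, and the groups overlapped for *Slc2a4* and *Slc2a1*. The 2 SGLT3 genes of the mouse, *Slc5a4a* and *Slc5a4b*, were at 0 and at most 0.203 CPM.

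The SLC16 family holds the proton-coupled monocarboxylate carriers. Of its genes and their chaperones 15 of 16 were tested, 3 rose and 2 fell, with a median of 0.10. Among all tested genes 10.8% rose and 13.5% fell. *Slc16a14* went from 36.5 ± 7.08 CPM to 72.5 ± 15.8 CPM (SD, n = 6), a rise of 0.99 on the log2 scale (FDR = 4.87e-05, edgeR's quasi-likelihood test). *Slc16a9*, a carnitine exporter, rose by 0.31 (FDR = 0.000938), and *Slc16a5* by 0.19 (FDR = 0.0222). *Slc16a12*, a creatine carrier, fell by 0.37 (FDR = 0.00693), and *Slc16a13* fell by 0.22 (FDR = 0.0132). All 6 SK-124 mice were above all vehicle mice for the 3 that rose and below them for *Slc16a13*. *Slc16a1* and *Slc16a7*, the lactate carriers MCT1 and MCT2, had log2 fold changes of -0.08 (FDR = 0.507) and 0.04 (FDR = 0.716). The chaperones of the list, *Bsg* and *Emb*, were at 0.16 (FDR = 0.158) and 0.16 (FDR = 0.111, edgeR's quasi-likelihood test for all). Under library totals *Slc16a5* was at 0.07 and lost its call, and *Slc16a7* turned to -0.08 and *Slc16a10* from 0.10 to -0.03. With limma on log2(TPM + 0.1) the signs of these 2 genes and of *Slc16a4* turned, and of the 3 that rose only *Slc16a14* kept its call.

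*Sgk1*, a kinase that raises the surface abundance of several sodium-coupled carriers, rose by 2.02 on the log2 scale (FDR = 4.86e-08, edgeR's quasi-likelihood test), with all 6 SK-124 mice above all vehicle mice. *Pdzk1ip1*, the accessory subunit of SGLT2, was at -0.10 (FDR = 0.401), and *Pdzk1*, a brush border scaffold, at -0.09 (FDR = 0.266, edgeR's quasi-likelihood test for both). Of the enzymes that handle sugars, inositol, lactate and ketone bodies 15 of 16 were tested, none rose and 1, the hexokinase *Hk1*, fell by 0.40 (FDR = 7.46e-05, edgeR's quasi-likelihood test) and lay below every vehicle mouse in 6 of 6 SK-124 mice. The median of these enzymes was 0.09, and among all tested genes 10.8% rose and 13.5% fell. *Khk*, the fructokinase downstream of GLUT5 and SGLT5, was at 0.04 (FDR = 0.784), and *Miox*, which breaks down inositol, at 0.01 (FDR = 0.934). Under library totals the signs of both turned (-0.07 and -0.10), as did those of 9 of the 15 enzymes in all.

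**Figure D5:**
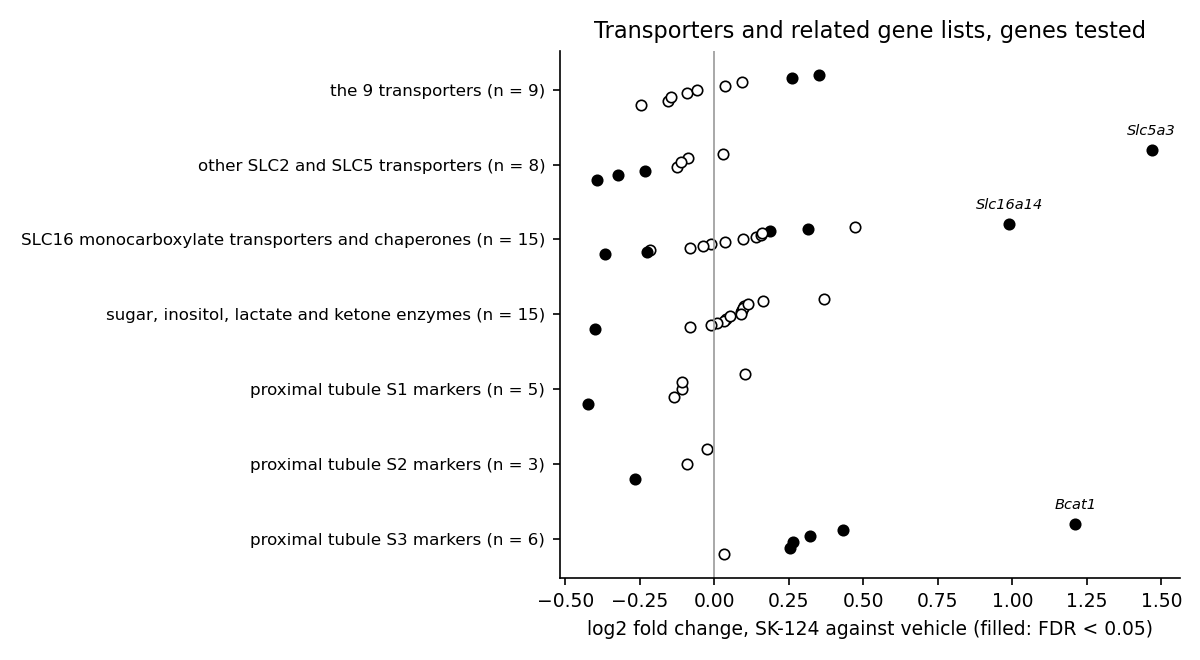
Log2 fold change (x axis, SK-124 against vehicle, n = 6 per group) of the 9 transporters and of the tested genes of 6 related lists, 1 point per gene, filled where the FDR of edgeR's test is under 0.05. *Slc5a3* (1.47) and *Slc16a14* (0.99) lie far outside the span of the 9 transporters (-0.24 to 0.35), and 5 of 6 S3 markers are filled to the right of 0.

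Markers of the nephron segments that hold these carriers moved unequally, where among all tested genes 10.8% rose and 13.5% fell. The 4 general proximal tubule markers did not pass the test in either direction (under library totals *Slc34a1* was called lower, at -0.19), and their summed level was 6399 to 7261 CPM in vehicle mice and 5992 to 7606 CPM in SK-124 mice. Of 5 S1 markers 1 fell, *Slc7a8* by 0.42 on the log2 scale (FDR = 0.0197), with a summed level of 750 to 1212 CPM and 828.6 to 1250 CPM. Of 3 S2 markers 1 fell, *Slc13a3* by 0.27 (FDR = 0.00527, edgeR's quasi-likelihood test for both), with sums of 1601 to 1806 CPM and 1412 to 1796 CPM. Of 6 S3 markers 5 rose, between 0.25 for *Slc22a13* and 1.21 for *Bcat1*, and their sums did not overlap, at 1724 to 2064 CPM in vehicle mice and 2180 to 2616 CPM in SK-124 mice. *Slc7a13*, the other S3 marker, was at 0.03 (FDR = 0.810, edgeR's quasi-likelihood test). Under library totals 3 S3 markers were called higher and *Slc7a13* turned to -0.08, and with limma on log2(TPM + 0.1) 1 was called higher and *Slc7a13* was at -0.11. *Slc5a8* rose together with these S3 markers, *Slc5a1*, also a late proximal tubule gene, was at 0.04, and their part in the result was not tested.

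Other cell types were checked by their markers. In the thick ascending limb 0 of 2 markers passed in edgeR's test, with sums of 2158 to 3132 CPM in vehicle mice and 2707 to 3344 CPM in SK-124 mice, and in the distal convoluted tubule also 0 of 2, with sums of 589 to 773 CPM and 570.5 to 910 CPM. In the collecting duct 2 of 6 rose and 1 fell (1 and 1 under library totals). Endothelial markers had 1 of 4 lower, fibroblast markers 1 of 2 and immune markers 2 of 4 (2, 2 and 3 under library totals). Of all tested genes 10.8% rose and 13.5% fell in edgeR's test with TMM, and under library totals 778 of 14159 rose and 3057 fell. The summed immune markers were low, 14.7 to 20.9 CPM and 12.9 to 18.0 CPM. None of 5 red cell markers and none of 3 liver markers passed. Fat markers summed to 0 to 14.9 CPM in vehicle mice and 0.0501 to 9.41 CPM in SK-124 mice, and adrenal markers to at most 0.877 CPM, with *Cyp21a1* at 0 in all 12 mice. The part of these cells in the values of the transporters was not tested.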

How the data were processed

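RNA of 12 whole kidneys was sequenced, and the authors aligned and quantified each library with STAR 2.7.2b and RSEM 1.3.0 on mm10, per the labels' processing notes, which also name FastQC and DESeq2. Annotation release and strand setting were not given in the sources used here. The deposited expected counts are RSEM's estimated counts per gene with no normalization, the deposited TPM are scaled by the authors to effective transcript length and library, and the deposited gene length is RSEM's isoform-weighted length in bases. Of 55401 identifiers 54349 matched GENCODE M21 with their version, all 9 members among them. No column of another sample was present.

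Expected counts were rounded to whole numbers (those of the members were whole already), scaled with TMM, filtered with filterByExpr and compared by the quasi-likelihood test of edgeR, with no block for the replicate number. FDR is the Benjamini-Hochberg adjusted p over all genes tested. TPM ratios were tested with exact permutation tests, and isoform-weighted lengths with limma. Alternatives were DESeq2, RLE factors, library totals with and without mitochondrially encoded genes, no count filter or at least 10 counts in every mouse, limma on log2(TPM + 1) and log2(TPM + 0.1), the replicate block, each mouse left out, and SK-124 mice 1 to 3 or 4 to 6 alone. Members, gene lists and tests were chosen with earlier results of these data known. All 9 members are named, and from each other list the genes with an FDR under 0.05 and the 3 largest log2 fold changes in size, with counts for marker lists and the 2 genes of most similar log2(CPM + 0.5) for each member. Any gene beyond this rule was picked with its values in view. Some genes that this rule names, and the counts of 2 lists that hold them, are not reported here. The fits were tested on simulated data with 200 genes changed 2-fold. Of these edgeR recovered 97.5%, DESeq2 98.5% and limma 97.5%. The false share of the calls was 3.94%, 10.5% and 4.41%, so that of DESeq2 was above the threshold of 0.05. Changes as small as those of the members were not simulated. Among 30 pairs of libraries of one group the lowest ratio of chi-square to degrees of freedom was 4.72, so none looked duplicated. Pairs with vehicle mouse 3 had ratios of 21.0 to 27.1, against at most 9.21 in the other vehicle pairs, and pairs of SK-124 mice reached 32.8. Library totals of 19244227 to 19771802 limit mainly genes with few counts. Tools were DESeq2 1.42.0, edgeR 4.0.16 and limma 3.58.1 in R 4.3.3, and scipy 1.17.1, pandas 2.3.3, numpy 2.4.6 and matplotlib 3.10.9 in Python 3.11.15.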

Additional observations from a re-analysis of the deposited data

Results flagged for a closer look

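In 2 of 24 values tested for a single mouse far from the rest of its group, the gap was wider than Dixon's test allows, where chance alone gives about 1.2. *Slc2a5* was at 59.0 CPM in vehicle mouse 5, with the other vehicle mice between 48.7 and 51.1 CPM, and without this mouse its log2 fold change was -0.20 in place of -0.24 (FDR = 0.139, edgeR's quasi-likelihood test). *Slc5a9* was at 28.8 CPM in SK-124 mouse 2, with the other SK-124 mice between 21.7 and 24.4 CPM, and without this mouse its log2 fold change was -0.20 (FDR = 0.0189, edgeR's quasi-likelihood test).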

How the results depend on the processing

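The 9 transporters had at least 421 counts in every mouse, and no other depth was tried. *Slc5a8* passed in 21 and *Slc5a10* in 20 of 23 alternatives, both in all 12 fits that left out a mouse. Members called higher fell to 1 under library totals and to 0 with limma on either TPM scale, and members called lower rose to 3 under library totals (*Slc5a9*, *Slc2a2* and *Slc2a5*) and to 3 without mitochondrially encoded genes (*Slc5a11* in place of *Slc2a2*, whose FDR was 0.0548), to 2 with limma on either TPM scale and to 1 with SK-124 mice 4 to 6 alone (0 to 1 with each mouse left out). Among all genes, 3057 of 14159 were called lower under library totals and 3225 of 14163 without mitochondrially encoded genes. With limma on log2(TPM + 1) and log2(TPM + 0.1) 2130 and 2118 of 14159 were lower, and with SK-124 mice 4 to 6 alone 1267 of 14621. *Slc5a1* turned to -0.0768 under library totals, -0.069 without mitochondrially encoded genes, and -0.11 and -0.12 with limma on log2(TPM + 1) and log2(TPM + 0.1) (-0.0138 to 0.0893 with each mouse left out, lowest without SK-124 mouse 5). *Slc5a12* turned to -0.0295, to -0.0157 without mitochondrially encoded genes, and to -0.0040 with SK-124 mice 4 to 6. The *Slc2a5* to *Slc2a2* difference of 0.03 turned to -0.0994 on counts and -0.0574 with SK-124 mice 4 to 6 (-0.043 to 0.137 with each mouse left out, below 0 without vehicle mouse 6 or SK-124 mouse 3 or 4). All genes called numbered 2298 with SK-124 mice 1 to 3, in place of 3453 (2960 to 3942 with each mouse left out, most without vehicle mouse 3). Called genes of the SLC16 list were 3 in place of 5 with limma on either TPM scale and with either set of 3 SK-124 mice, those of the other SLC2 and SLC5 genes 2 in place of 4 with SK-124 mice 4 to 6, and those of the enzymes 2 in place of 1 with DESeq2 (1 to 2 with each mouse left out, 2 without vehicle mouse 3). Library totals and TPM also shifted all genes, and the cause of these changes was not tested.

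Replicate numbers 1 to 6 are shared by both groups but belong to different mice. The deviations of same-numbered mice from their group means had correlations between -0.131 and 0.217. Mice with different numbers were not compared, so these values cannot show whether the numbers pair the mice. With the replicate number as a block, 3466 genes were called, 2 members were higher and 0 lower, and no call of a member, a ratio or a list changed.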
